A study of Mus musculus with 16 samples.

Results

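Myotubes of a mouse muscle line that carries an inducible msx2 transgene were compared with myotubes of a GFP-only line before any doxycycline was given, to see what the msx2 line differs in when the transgene is meant to be off. The comparison used 6 of the 16 libraries, 3 of each line, chosen by their labels, and 15780 of the 19799 genes with a symbol had enough reads to be tested. Both lines derive from pmi28, a mouse myoblast line whose mononucleated cells fuse into myotubes in low-serum medium.

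The msx2 line holds inducible msx2 and GFP transgenes, and the GFP line holds the inducible GFP transgene alone. For both lines, confluent myoblasts grown in 20% fetal bovine serum were switched to 10% horse serum for 3 days, and the myotubes were then caught on a filter mesh and replated with AraC, a drug that kills dividing cells, for 3 days. The 3 msx2-line and 3 GFP-line libraries of the comparison come from such myotubes without induction. Of the other libraries, 3 of each line are from isolated myotubes kept for 24 h in growth medium with 2 µg/ml doxycycline, and 2 of each line are from uninduced myoblasts. The labels do not say whether a line is 1 clone, which promoter or integration site drives its transgene, which medium the uninduced myotubes were in at harvest, or whether replicates were separate cultures. The p-values therefore cover the variation among these samples only, and it may be technical. Whatever else distinguishes the lines cannot be told apart from the presence of Msx2, and the GFP transgene was not analysed here.

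Msx2 encodes a homeodomain transcription factor that mostly represses its targets. It is known from embryonic tissues such as limb buds, skull sutures and the neural crest, where it holds cells back from differentiating, and forced expression of Msx genes in myogenic cells opposes the muscle programme. That programme is run by the MyoD family (Myod1, Myf5, Myf6, Myog) together with Mef2 factors, which switch on sarcomere, calcium-handling and neuromuscular genes as myoblasts fuse, while Pax7 marks the undifferentiated progenitor.

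Total counts per library ran from 19784873 to 33092666, both extremes being uninduced myotubes. Levels are given in CPM, the count of a gene per 1000000 counts of its library, scaled over all 16 libraries. Markers of the labelled tissue were abundant: the 9 for myotubes (such as Myh3, Acta1 and Ckm) summed to 23229 to 26388 CPM in msx2-line and 25646 to 28571 CPM in GFP-line libraries. The 7 markers of mononucleated myoblasts summed to 240 to 286 CPM in the msx2 line and 254 to 315 CPM in the GFP line, most of it Cdh15, for M-cadherin. Leukocyte markers summed to 23.2 to 26.0 CPM in the msx2 line and 23.0 to 26.2 CPM in the GFP line, and the glial and astrocyte genes Sox10 and Gfap were under 1 CPM in all 6 libraries. Fibroblast markers spread more, at 250 to 736 CPM in the msx2 line and 335 to 387 CPM in the GFP line, the highest value being msx2-line replicate 2.

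Msx2 itself was measured first. Without doxycycline, msx2-line myotubes held 12.0, 15.8 and 13.1 CPM of Msx2 (243, 447 and 423 reads), against 1.10, 1.02 and 1.18 CPM (22, 28 and 40 reads) in GFP-line myotubes. Every msx2-line library stood above every GFP-line library, by 10.2 to 15.4 times between single libraries and 12.4 times between the means of 13.6 ± 1.96 and 1.10 ± 0.076 CPM (SD, n = 3 each). The log2 difference was 3.63 ± 0.15 (SE; edgeR adjusted p = 1.21e-05), and the exact two-sided permutation test gave p = 0.1, the smallest that 3 against 3 libraries allow. Reads of the transgene and of the endogenous gene fall into the same count.

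Set against full induction this was a small amount. Doxycycline-treated msx2-line myotubes held 1434 ± 92.4 CPM of Msx2, against 1.03 ± 0.229 CPM in treated GFP-line myotubes (SD, n = 3 each). The uninduced level was thus 0.951% of the induced one, which was 105 times as high. In uninduced myoblasts the msx2 line held 17.1 and 16.7 CPM and the GFP line 1.62 and 1.31 CPM, an 11.5-fold difference. The log2 line difference in myotubes exceeded that in myoblasts by 0.16 ± 0.28, which did not pass (edgeR adjusted p = 0.776). Msx1, the closest paralog, averaged 0.708 ± 0.153 CPM in msx2-line and 0.611 ± 0.0319 CPM in GFP-line myotubes (SD, n = 3 each), a log2 difference of 0.23 ± 0.27 that did not pass (edgeR adjusted p = 0.768).

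**Figure D1:**
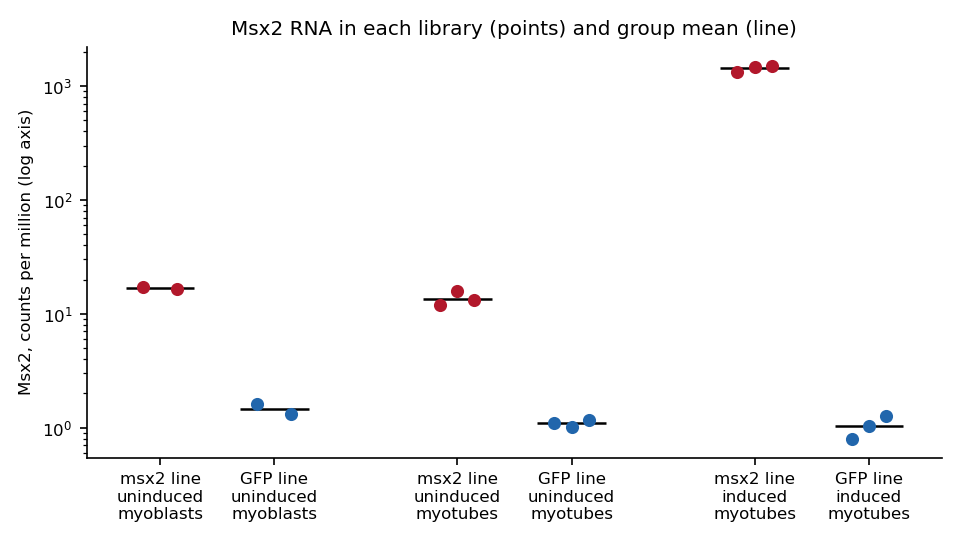
Msx2 RNA in CPM (log axis) in each of the 16 libraries (points) with group means (lines), by line and stage. Uninduced msx2-line cells sit between 12.0 and 17.1 CPM, above every GFP-line library and below the induced msx2-line myotubes, whose mean is 1434 CPM.

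Msx proteins bind DNA with the core letters TAATTG, so the stretches before the start sites of the called genes were read to show where those letters stand. A gene was called when its adjusted p was under 0.05 with the replicate number as a block. Promoter sequences of 250 bases before the start, from RefSeq on GRCm38.p6, were matched by symbol for 25 of the 38 genes called higher and 54 of the 74 called lower. TAATTG or its reverse complement CAATTA stood in 5 of the 25 (20%) and 5 of the 54 (9.26%), and in 702 of the 12463 tested genes with such a sequence (5.63%). The stretches are shown for 5 called genes whose values are described in what follows, with the letters 5′ to 3′ on the gene's strand and the core in capitals.
Mef2c, chr13:83503814-83503873, plus strand: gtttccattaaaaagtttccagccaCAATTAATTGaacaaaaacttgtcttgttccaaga
Vldlr, chr19:27216240-27216295, plus strand: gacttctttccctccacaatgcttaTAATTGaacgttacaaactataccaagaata
Vldlr, chr19:27216348-27216410, plus strand: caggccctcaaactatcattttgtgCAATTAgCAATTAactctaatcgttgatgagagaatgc
Tmem252, chr19:24673924-24673979, plus strand: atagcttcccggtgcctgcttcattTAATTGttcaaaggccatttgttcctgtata
Wdr16, listed by RefSeq as Cfap52, chr11:67965841-67965892, minus strand: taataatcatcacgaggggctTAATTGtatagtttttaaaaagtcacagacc
Dio2, chr12:90739055-90739110, minus strand: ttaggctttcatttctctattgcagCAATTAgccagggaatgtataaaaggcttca
In Mef2c both orientations overlap in 1 palindromic run, and Vldlr has 3 copies in 2 stretches. Of these 5 genes Vldlr was higher in the msx2 line and the others lower, which reflects the choice of genes shown. The letters also stand before Pcolce, Rps6ka2, Sbsn and Atp2b4, all called higher, and before Arl4a, called lower. A match is a description of the letters and not evidence of binding.

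Few genes besides Msx2 passed the test between the lines. Of 15780 genes tested, 112 were called, which is 0.710%, with 38 higher (0.241%) and 74 lower (0.469%) in the msx2 line. The changes were small: the median size among called genes was 0.49 log2, and 10 genes reached 2-fold. The 6 that were at least 2-fold higher were Msx2, AI662270, Perp, Car2, Serpinb7 and Aqp5, and the 4 at least 2-fold lower were Dhrs7c, Atp13a5, Ctsc and Abi3. In 95 of the 112 the 3 libraries of a line did not overlap those of the other, as was so for 2078 of all genes tested (13.2%), a property that the calls themselves favour. At an unadjusted p under 0.05 stood 2133 genes (13.5%), 1090 higher (6.91%) and 1043 lower (6.61%).

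These calls rest on comparing libraries of the same replicate number. Without that block Msx2 alone passed, and the smallest edgeR adjusted p among the other 111 was 0.136, although all 112 kept their direction. Across 11 other fits that kept the block (2 other scalings, no low-count filter, DESeq2, a GC offset, robust estimation off, added libraries, or 1 replicate number left out), 17 genes passed in every one. They were Msx2, Car2, Rhou, Crip1 and Sirpa among the higher genes, and Dhrs7c, Atp13a5, Ctsc, Cacna1b, Wdr16, Dcx, Grip2, Ablim3, Scarf2, Slc35f1, Fndc5 and Slc4a3 among the lower ones. The 11 leave out a filter of at least 5 CPM in 3 libraries, which kept the block and called 37 genes, all among the 112. Of the 40 called genes other than Msx2 that the naming rule takes, 1 lost its call without replicate number 1, 21 without number 2 and 23 without number 3, all with their direction unchanged. Pax7 was the first of these, and it also lost the call without number 2 or 3. With the 5 CPM filter 17 of the 40 lost their call. Just inside the threshold were Pxn, Ptges3l and Pcolce (edgeR adjusted p = 0.0492 each), and just outside it Pbx3, Sall1 and Cd36 (edgeR adjusted p of 0.0518, 0.0519 and 0.0521).

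The fall with the smallest adjusted p was in Atp13a5, for a P-type transport ATPase. Its level was 38.6, 28.1 and 35.2 CPM in msx2-line myotubes, against 84.8, 66.2 and 69.6 CPM in GFP-line myotubes, a log2 difference of -1.11 ± 0.07 (edgeR adjusted p = 2.19e-04). All 3 msx2-line libraries lay far below the lowest GFP-line library. Dhrs7c, for a dehydrogenase of the sarcoplasmic reticulum of striated muscle, had the largest fall, with 19.4, 16.3 and 18.7 CPM in the msx2 line and 46.9, 44.8 and 33.4 CPM in the GFP line (-1.18 ± 0.12, edgeR adjusted p = 0.0184). Ctsc, for the lysosomal protease cathepsin C, fell too, with 8.67, 6.71 and 5.62 CPM in the msx2 line against 22.0, 15.1 and 9.82 CPM in the GFP line (-1.10 ± 0.12, edgeR adjusted p = 0.018). In both lines replicate 1 was the highest and replicate 3 the lowest, which is the kind of shared deviation that the block takes out.

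Capn3, for the muscle calpain of the sarcomere, held 163, 191 and 204 CPM in msx2-line myotubes and 312, 302 and 282 CPM in GFP-line myotubes (log2 -0.68 ± 0.09, edgeR adjusted p = 0.0201), with no overlap. Capn3 passed in 8 of the 11 other fits with the block, and without replicate number 2 it did not (edgeR adjusted p = 0.129). Cacna1b, the pore of the N-type calcium channel, fell by 0.92 log2, at 5.76 ± 0.34 CPM in the msx2 line and 11.0 ± 1.62 CPM in the GFP line. Grip2, for a scaffold that binds glutamate receptors, fell by 0.80 log2 (17.4 ± 4.49 CPM in the msx2 line, 30.1 ± 1.95 CPM in the GFP line, SD, n = 3 each). The entry Mir1a-1, the gene of a muscle microRNA, fell by 0.70 log2. An mRNA library counts reads of its host transcript there, not the mature microRNA.

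Among the remaining falls were Abi3, for a protein of actin-regulating complexes (-1.02 ± 0.16 log2), Wdr16, for a protein of cilia and flagella (-0.87 ± 0.10), Tmem252, a transmembrane protein (-0.70 ± 0.12), and F2, for prothrombin (-0.65 ± 0.11). Abi3 was at 2.18 ± 0.163 CPM in the msx2 line and 4.54 ± 1.12 CPM in the GFP line (SD, n = 3 each). The 12 largest falls, these 4 among them, had no overlapping libraries, because the naming rule required it.

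After Msx2 the largest named rise was Perp, for a desmosomal membrane protein that p53 activates. It held 2.61, 4.03 and 3.54 CPM in msx2-line myotubes, against 1.00, 1.46 and 1.74 CPM in GFP-line myotubes (log2 1.27 ± 0.18, edgeR adjusted p = 0.0216, and 0.0758 without replicate number 2). Perp passed in 9 of the 11 other fits with the block. Car2, for carbonic anhydrase 2, stood at 14.5, 6.54 and 12.8 CPM in the msx2 line and 4.36, 3.55 and 6.18 CPM in the GFP line (1.22 ± 0.16, edgeR adjusted p = 0.0216). Its lowest msx2-line and highest GFP-line libraries, numbers 2 and 3, nearly met. Rhou, an atypical small GTPase, was at 25.6, 21.2 and 29.8 CPM in the msx2 line and 13.6, 12.7 and 20.5 CPM in the GFP line (0.73 ± 0.09, edgeR adjusted p = 0.0191).

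Crip1, for a small LIM-domain protein, held 42.0, 44.7 and 54.7 CPM in the msx2 line and 29.9, 30.0 and 35.8 CPM in the GFP line (log2 0.57 ± 0.06, edgeR adjusted p = 0.0184). Tspan2, a tetraspanin, rose by 0.68 ± 0.10 log2, Nedd9, a focal adhesion scaffold, by 0.67 ± 0.12, Adam8, a membrane metalloprotease, by 0.60 ± 0.11, and Gng11, a G-protein gamma subunit, by 0.68 ± 0.09. Ppp1r27, for a regulatory subunit of protein phosphatase 1, rose by 0.79 ± 0.13 log2, with pairs of unequal difference: 25.0, 16.0 and 13.7 CPM in the msx2 line, against 11.9, 8.56 and 10.4 CPM in the GFP line. Vldlr, a lipoprotein receptor, rose by 0.55 ± 0.09 log2. Vldlr and Ppp1r27 each passed in 7 of the 11 other fits with the block, and Nedd9 in 6. Hspa1b, for the inducible heat shock protein Hsp70, rose by 0.55 ± 0.09, but its near-identical neighbour Hspa1a (0.51 ± 0.09) could share reads with it, so both values are uncertain.

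**Figure D2:**
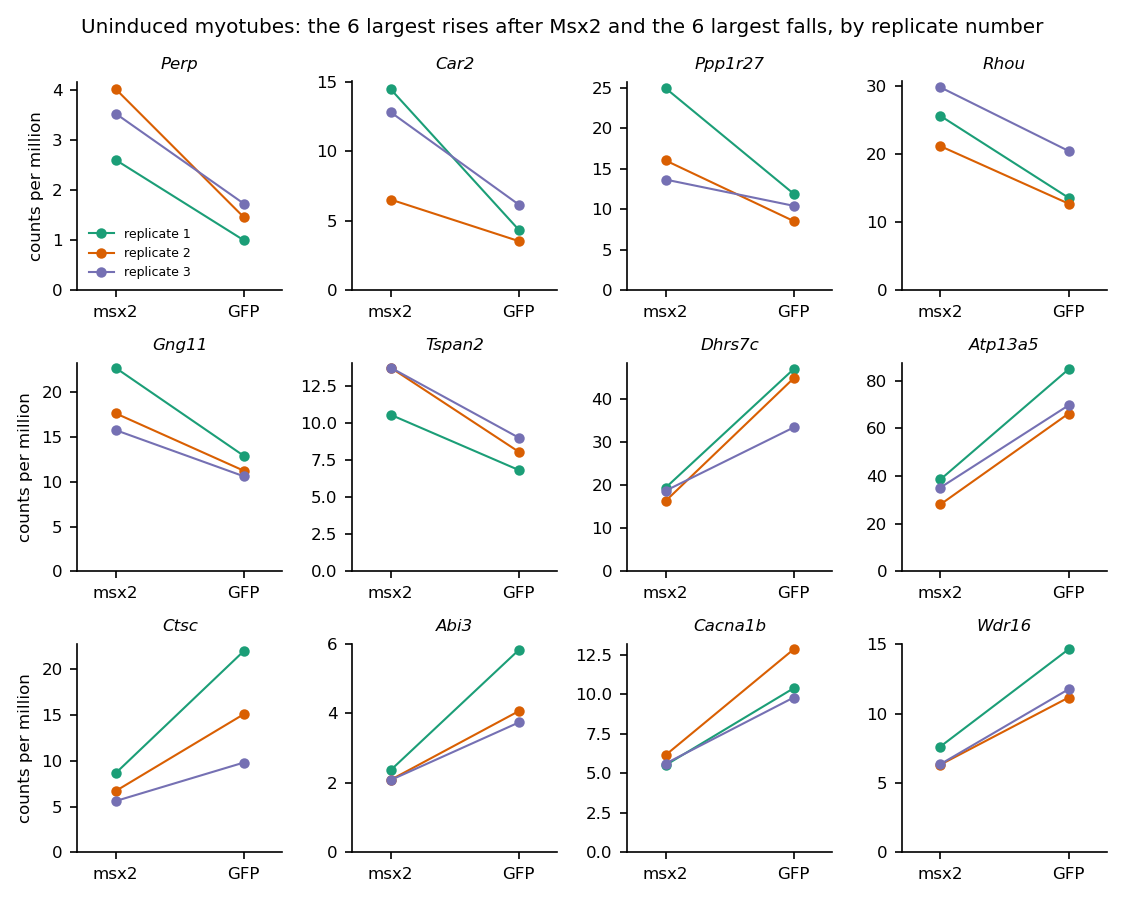
CPM in the 6 uninduced myotube libraries, msx2 line left and GFP line right in each panel, for the 6 largest rises after Msx2 and the 6 largest falls among named genes; lines join libraries of the same replicate number. All 3 pairs slope the same way in each of the 12 panels because the naming rule admits no overlap between the lines.

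Lists of genes by role were then read member by member. Of 918 tested genes on 40 lists, 21 were called (2.29%), 7 higher and 14 lower, beside 0.710% of all genes. The members include Msx2 and were chosen with earlier results of these data known, which favours a larger share, so the 2 shares cannot be compared. Over all genes the median log2 difference was 0.004, and 51.1% were above 0.

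Mef2c was the called member among the 21 muscle transcription factors tested, and it was lower. Mef2c, which activates muscle genes together with the MyoD family, held 1263, 1069 and 1128 CPM in msx2-line myotubes, against 1856, 1473 and 1405 CPM in GFP-line myotubes, with no overlap (log2 -0.44 ± 0.07, edgeR adjusted p = 0.0289). Mef2c passed in 8 of the 11 other fits with the block. Without replicate number 3 Mef2c did not pass (-0.50, edgeR adjusted p = 0.0775), nor did it when the spread was taken from all 16 libraries (edgeR adjusted p = 0.181). Of the MyoD family, Myod1 averaged 276 ± 16.9 CPM in the msx2 line and 260 ± 9.15 CPM in the GFP line (0.09 ± 0.06 log2, edgeR adjusted p = 0.581). Myog, for myogenin, averaged 768 ± 28.9 CPM in the msx2 line and 754 ± 43.9 CPM in the GFP line (0.04 ± 0.07 log2, edgeR adjusted p = 0.873; SD, n = 3 each). Neither of these passed, nor did Myf5 (-0.19 ± 0.13) or Myf6 (0.15 ± 0.08).

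Mef2d, at a log2 difference of -0.26 ± 0.06, and Tead4, which binds muscle promoters, at -0.30 ± 0.08, had no overlap between lines but did not pass (edgeR adjusted p of 0.114 and 0.141). The same holds for Nfix, a factor of fetal muscle (-0.27 ± 0.07), and Tead1 (-0.13 ± 0.06). Small log2 differences were found in the homeobox factor Six4 (0.00 ± 0.07), its partners Eya1 (-0.13 ± 0.09) and Eya4 (-0.20 ± 0.08), and in Srf (0.14 ± 0.06) and its coactivator Myocd (0.21 ± 0.17). Further members were Mef2a (0.13 ± 0.08), Mef2b (-0.07 ± 0.13), the muscle methyltransferase gene Smyd1 (-0.15 ± 0.06), Hopx (-0.05 ± 0.18) and Pitx3 (0.04 ± 0.17). Over the 21 factors the median was -0.07 log2 and 7 were above 0.

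Of 51 sarcomere genes 2 were called lower and 1 higher, with a median of -0.08 log2 and 14 members above 0. The 2 that fell were the slow and cardiac myosin heavy chains. Myh7 held 347, 335 and 601 CPM in msx2-line and 495, 499 and 788 CPM in GFP-line myotubes (log2 -0.48 ± 0.06, edgeR adjusted p = 0.0193). Replicate 3 was the highest library of both lines, so the lines overlapped while each pair was lower in the msx2 line. Myh6 did the same (-0.46 ± 0.06), and without replicate number 3 neither passed (edgeR adjusted p = 0.0537 for Myh7 and 0.0724 for Myh6). Since both genes lie side by side and share sequence, reads could be split between them. Mybpc2, for the fast form of myosin-binding protein C, rose by 0.45 ± 0.08 log2 with overlapping libraries, at 23.5 ± 5.77 CPM in the msx2 line and 17.5 ± 5.74 CPM in the GFP line (SD, n = 3 each). Mybpc2 passed in 3 of the 11 other fits with the block, with adjusted p up to 0.201. The embryonic chain Myh3 stood at 8203 ± 552 CPM in the msx2 line and 9447 ± 859 CPM in the GFP line and did not pass (-0.19 ± 0.06, edgeR adjusted p = 0.22).

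Calcium handling and excitation had 2 of 28 members lower and none higher, a median of -0.10 log2 and 6 members above 0. Srl, for sarcalumenin, which binds calcium inside the sarcoplasmic reticulum, held 930, 968 and 927 CPM in the msx2 line, against 1360, 1273 and 1175 CPM in the GFP line (log2 -0.42 ± 0.06, edgeR adjusted p = 0.0296; 0.102 without replicate number 3). Those msx2-line values lie close together and below all of the GFP line. Srl passed in 8 of the 11 other fits with the block. Scn4a, the skeletal muscle sodium channel, fell by 0.38 ± 0.07 log2, and passed in 4 of the 11 other fits with the block (highest adjusted p = 0.223). Of 16 neuromuscular junction genes and 30 of muscle energy metabolism none passed, with 3 and 10 members above 0 and medians of -0.06 and -0.11 log2. At an unadjusted p under 0.05 were 3 neuromuscular genes, all lower, and 4 higher and 6 lower energy genes. Of all genes 6.91% were higher and 6.61% lower at that p. The same count was 4 higher and 18 lower of the 51 sarcomere genes, and 0 and 10 of the 28 calcium genes. It was 1 and 8 of the 21 muscle transcription factors, and 1 and 5 of 24 fusion genes. Of 24 genes of myoblast fusion and adhesion, Jam3, for a junctional adhesion molecule, fell (-0.36 ± 0.07 log2) and passed in 4 of the 11 other fits with the block.

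BMP and TGF-beta signalling had 2 of 39 members lower and none higher, with a median of -0.02 log2. Both encode secreted antagonists of ligands of that family. Fst, for follistatin, an antagonist of activins and myostatin, held 247, 166 and 225 CPM in msx2-line myotubes, against 374, 306 and 307 CPM in GFP-line myotubes (log2 -0.63 ± 0.08, edgeR adjusted p = 0.0216), with no overlap. Fst did not pass when the spread was taken from the 12 myotube libraries or from all 16, with the block kept (edgeR adjusted p of 0.2525 and 0.2095). Chrd, for chordin, which binds BMPs, fell by 0.33 ± 0.06 log2, at 51.0 ± 5.55 CPM in the msx2 line and 64.2 ± 5.74 CPM in the GFP line (SD, n = 3 each). Chrd passed in 4 of the 11 other fits with the block (highest adjusted p = 0.173). Of 34 Wnt genes the receptor Fzd9 was lower (-0.65 ± 0.11), and of 19 Notch genes none passed, 2 having an unadjusted p under 0.05. Fzd9 passed in 6 of the 11 other fits with the block.

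Single members passed on other lists. Grb10, an imprinted adaptor that dampens insulin receptor signalling, fell by 0.50 ± 0.07 log2 as the called member of 23 imprinted genes. Spry2, an inhibitor of receptor tyrosine kinase signalling, fell by 0.35 ± 0.06 as that of 35 early-response genes. Plk2, a stress-induced kinase on the p53 list, fell by 0.44 ± 0.06 while Perp, on the same list of 27, rose. Adam19, a membrane metalloprotease, fell by 0.45 ± 0.07 and Adam8 rose, both on the matrix remodelling list of 27. Spry2 and Adam8 each passed in 5 of the 11 other fits with the block. Ehmt2, for the H3K9 methyltransferase G9a, rose by 0.33 ± 0.06 log2, with 106, 99.4 and 113 CPM in the msx2 line and 82.8, 80.5 and 91.4 CPM in the GFP line, as the called member of 44 chromatin genes. Ehmt2 passed in 7 of the 11 other fits with the block (highest adjusted p = 0.142). Tubb3, a tubulin named for neurons and also present in myoblasts, rose by 0.44 ± 0.06.

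Pax7, for the transcription factor of muscle progenitors, was lower in the msx2 line. It held 3.64, 3.71 and 2.48 CPM in msx2-line myotubes and 6.47, 6.07 and 4.09 CPM in GFP-line myotubes (log2 -0.74 ± 0.14, edgeR adjusted p = 0.0491), with no overlap, and 1 number left out gave adjusted p of 0.0528 to 0.131. Uninduced myoblasts held 86.0 and 80.1 CPM in the msx2 line and 63.2 and 62.9 CPM in the GFP line, so the myotube levels are a small part of those. All 7 markers of mononucleated myoblasts, Pax7 among them, had negative log2 differences, with a median of -0.56. The median was -0.268 without replicate number 1, -0.765 without number 2 and -0.498 without number 3, with 0 of 7 above 0 each time. The 7 include Mki67, Top2a, Ccnb1 and Cdk1, genes of dividing cells, so they are not independent of the G2/M genes. Fewer mononucleated myoblasts and less RNA per cell cannot be told apart in these libraries. Of 40 G2/M genes 3 were above 0, the median was -0.20 log2 and none was called, with 8 lower and 0 higher at an unadjusted p under 0.05, beside 6.61% and 6.91% of all genes. Their summed level was 390, 409 and 363 CPM in the msx2 line and 556, 395 and 395 CPM in the GFP line, so GFP-line replicate 1 alone stood apart, and without replicate number 1 the median was -0.05 log2 with 17 of 40 above 0. The part of these cells in the falls above was not tested.

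Other lists had medians above 0 without any call. Of 26 histone genes 22 were above 0 (median 0.17 log2), of 28 chemokine and inflammation genes 23 (0.15), of 44 extracellular matrix genes 31 (0.13) and of 34 interferon-response genes 21 (0.12). At an unadjusted p under 0.05 were 9 histone and 5 chemokine genes, all higher, 5 higher and 3 lower matrix genes, and 3 interferon-response genes each way, where all genes had 6.91% higher and 6.61% lower. Matrix genes summed to 7937, 12123 and 10842 CPM in the msx2 line and 9581, 8661 and 9983 CPM in the GFP line. Chemokine genes summed to 486, 810 and 634 CPM in the msx2 line and 549, 610 and 587 CPM in the GFP line. In both lists, as for the fibroblast markers, msx2-line replicate 2 was the highest of the 6 libraries and msx2-line replicate 1 the lowest. Without replicate number 2 the matrix median was -0.07 log2 with 14 of 44 above 0, while the medians were 0.11 for chemokine, 0.07 for histone and 0.04 for interferon-response genes. Of the 7 fibroblast markers tested 2 were above 0 (median -0.14 log2), and the part of fibroblasts in these values was not tested. In the integrated stress and unfolded protein response, 27 of 34 were above 0 (median 0.07 log2) and Vldlr was called. All 5 smooth muscle markers were above 0, with Tagln, an actin-binding protein, at 234 ± 69.7 CPM in the msx2 line and 186 ± 29.9 CPM in the GFP line (0.31 ± 0.11 log2, edgeR adjusted p = 0.276). The median of these markers was 0.31 log2, and without replicate number 2 it was 0.04 with 4 of 5 above 0. Respiratory chain genes, 43 in number, had a median of -0.01 log2.

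**Figure D3:**
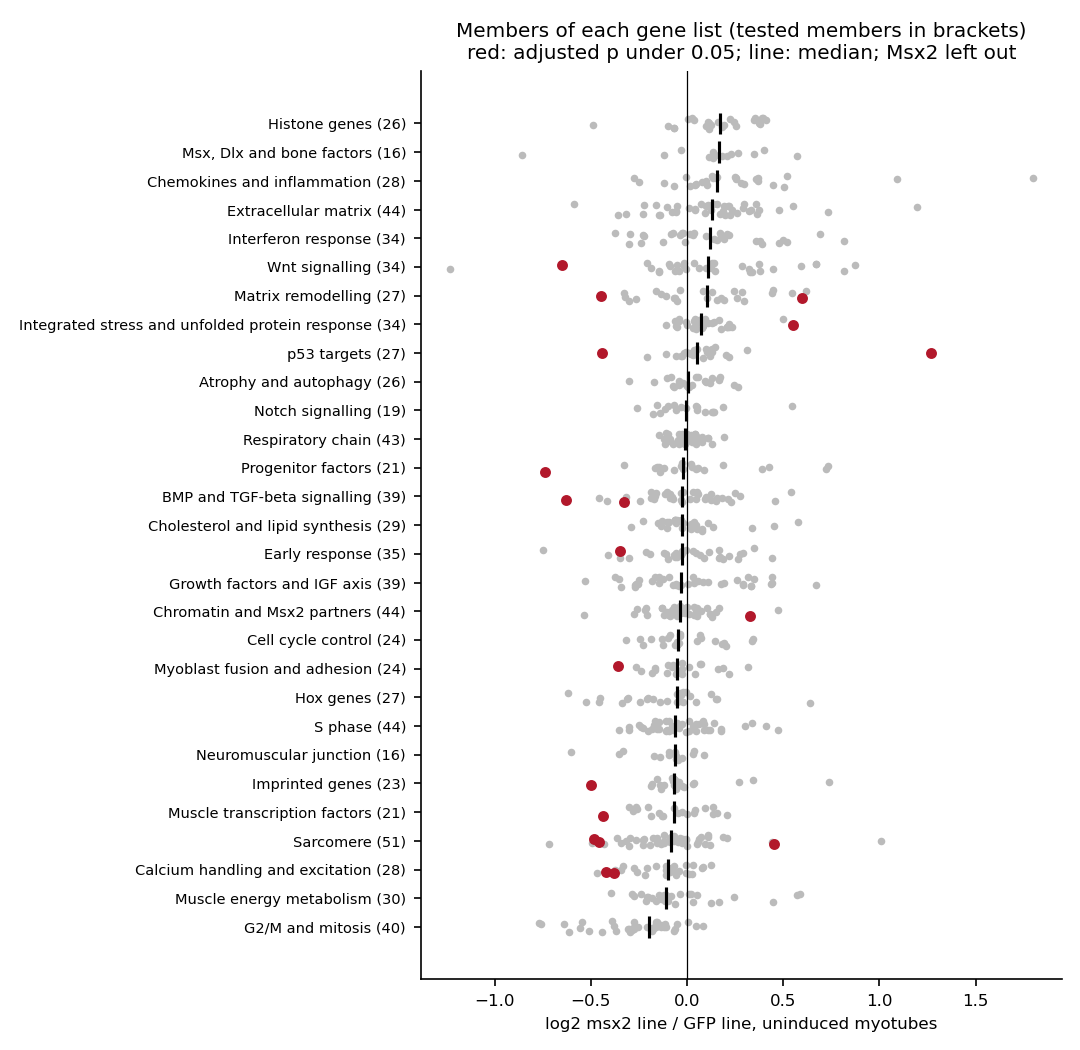
Log2 msx2 line over GFP line in uninduced myotubes for the tested members of each list with at least 15 of them (one point a gene, red where called, line at the median, Msx2 left out). Muscle lists have medians a little below 0, down to -0.11, G2/M genes have -0.20, and called members lie on both sides.

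Genes that the naming rule left out, picked here after their values were seen, include the following falls. Dmd, for dystrophin, held 191, 153 and 179 CPM in the msx2 line and 269, 208 and 232 CPM in the GFP line (log2 -0.43 ± 0.06, edgeR adjusted p = 0.0215). Fndc5, for the precursor of irisin, fell by 0.47 ± 0.06 log2, Camk2a, a calcium-dependent kinase, by 0.38 ± 0.06, Myl6b, a myosin light chain, by 0.42 ± 0.07, and Dio2, for the enzyme that activates thyroid hormone, by 0.49 ± 0.07. Tfrc, the transferrin receptor, held 758, 625 and 597 CPM in the msx2 line and 1343, 985 and 822 CPM in the GFP line (-0.64 ± 0.07). Among rises picked in this way, Aqp5, a water channel (1.09 ± 0.16), Krt19, a keratin (0.96 ± 0.16), and Serpinb7, a protease inhibitor (1.17 ± 0.18), had overlapping libraries, while S100a4, a calcium-binding protein (0.48 ± 0.06), held 433, 480 and 385 CPM in the msx2 line and 324, 352 and 265 CPM in the GFP line.

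Whether the called genes are ones that change in myogenesis was read from libraries outside the comparison. GFP-line induced myotubes, set against GFP-line myoblasts, gave 3758 genes at least 2-fold higher (24.2% of those tested) and 2513 at least 2-fold lower (16.2%). Unlike the myoblasts, these myotubes had AraC and then doxycycline in growth medium, so both sets mix such effects with differentiation. Of the 74 genes lower in msx2-line myotubes, 57 were among those higher in myotubes, 3 among those lower and 14 in neither. Of the 37 tested genes higher in the msx2 line, 6 were higher in myotubes (16.2%), 12 lower (32.4%) and 19 in neither. That order depends on the genes called: without replicate number 3 the shares were 41.2% higher and 14.7% lower, and with DESeq2 26.9% and 25.8%. Of the genes lower in the msx2 line at an unadjusted p under 0.05 without the block, 46.9% were higher in myotubes, against 77.0% of the called ones. The reverse view shows how few moved: of 3733 genes higher in myotubes, 57 were called lower (1.53%) and 6 higher, and their median was -0.02 log2. Those 2467 that are lower in myotubes had 3 called lower and 12 higher, with a median of 0.02.

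The induced myotubes share no library with the uninduced comparison, so the called genes could be looked up there. That comparison holds the line difference and the effect of induced Msx2 together, and called 5770 of 15673 genes (36.8%), 3076 higher (19.6%) and 2694 lower (17.2%) in the msx2 line. Of the 74 lower genes, 57 (77.0%) were also lower in induced msx2-line myotubes, 9 were higher there and 8 did not pass, where 17.3% of all genes tested in both were lower. Those 57 are 2.12% of the genes lower under induction. Of 37 higher genes 22 (59.5%) were also higher and 3 were lower, beside 19.4% of all genes. The labels do not say whether induced and uninduced libraries of 1 number came from 1 culture.

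Whether a line difference changed with induction was tested as an interaction over the 12 myotube libraries, which called 4150 of 15968 genes (26.0%), 2084 higher (13.1%) and 2066 lower (12.9%). Several genes lower in both comparisons were further apart under induction. Fst was at 23.2 ± 8.35 CPM in induced msx2-line and 296 ± 46.2 CPM in induced GFP-line myotubes, a log2 difference of -3.69 ± 0.28, where uninduced myotubes had -0.63 ± 0.08 (interaction -3.03 ± 0.35, edgeR adjusted p = 7.17e-04). Mef2c was at 466 ± 84.5 CPM in induced msx2-line and 1434 ± 184 CPM in induced GFP-line myotubes (-1.61 ± 0.14), a lower level in the msx2 line as before (SD, n = 3 each). Induced msx2-line myotubes had 13.0 ± 1.48 CPM of Atp13a5 and 75.2 ± 21.1 CPM of Capn3, against 65.1 ± 6.19 CPM of Atp13a5 and 283 ± 11.9 CPM of Capn3 in induced GFP-line myotubes (-2.31 ± 0.08 and -1.93 ± 0.18 log2). The interactions of Mef2c, Atp13a5 and Capn3 were -1.17 ± 0.19, -1.21 ± 0.10 and -1.24 ± 0.23 log2, each past the threshold. On the rising side Mybpc2 differed by 3.74 ± 0.18 log2 under induction, Ppp1r27 by 3.09 ± 0.08 and Adam8 by 1.42 ± 0.09, with interactions of 3.29 ± 0.18, 2.28 ± 0.17 and 0.81 ± 0.15 that passed as well.

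Others did not follow. Pax7, lower in uninduced msx2-line myotubes, was higher in the induced ones, at 9.21 ± 1.58 CPM against 5.25 ± 1.01 CPM in the GFP line (log2 0.83 ± 0.11, edgeR adjusted p = 7.07e-04; interaction 1.56 ± 0.15). Myh7 and Myh6 were higher too, by 0.24 ± 0.06 and 0.23 ± 0.06, as was F2 (0.37 ± 0.09). Car2, higher without induction, was at 2.49 ± 1.17 CPM in induced msx2-line and 5.46 ± 2.30 CPM in induced GFP-line myotubes (-1.14 ± 0.24, interaction -2.38 ± 0.31). Grip2 (0.06 ± 0.08), Fzd9 (-0.23 ± 0.14), Gng11 (-0.24 ± 0.19) and Vldlr (-0.60 ± 0.23) did not pass in the induced comparison.

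Myoblasts of the 2 lines gave another pattern. There 2410 of 16083 genes were called (15.0%), 851 higher (5.29%) and 1559 lower (9.69%) in the msx2 line. The GFP-line myoblast libraries differed little beyond counting noise, at a chi-square of 2.01 per degree of freedom where the other pairs within groups ran from 11.2 to 33.4. Of the 74 genes lower in msx2-line myotubes, 3 (4.05%) were also lower in msx2-line myoblasts, namely Ap1s2, Slc12a2 and Tfrc, and 16 were higher, beside 9.86% and 5.39% of all genes. Among those 16 were Srl, Capn3, Fst, Myh6, Myh7, Grb10 and Pax7. Of the 38 higher genes 9 (23.7%) were also higher in myoblasts, beside 5.39% of all genes, and 4 were lower. Higher in all 3 comparisons were Msx2, Adam8, Atp2b4, Crip1, Ehmt2, Gm5424 and Sirpa.

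**Figure D4:**
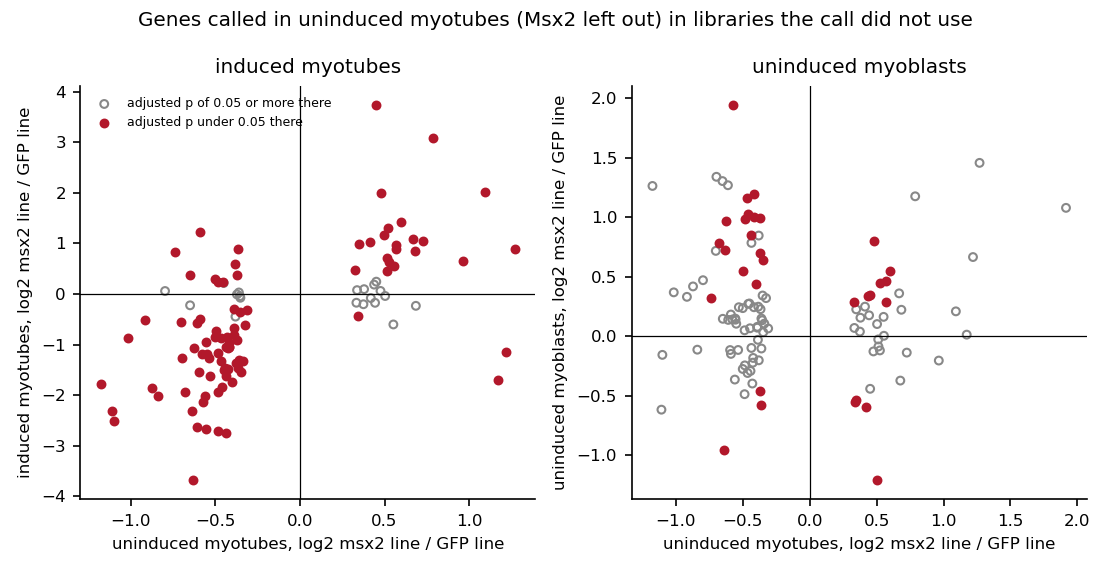
Log2 msx2 line over GFP line for the called genes other than Msx2 in uninduced myotubes (x axis) and, on the y axes, in induced myotubes (left) and uninduced myoblasts (right), red where the adjusted p is under 0.05 there. Most of the lower genes stay below 0 on the left, 57 of 74 with a call, while on the right 16 called ones lie above 0 and 3 below.

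For the muscle genes the difference between stages was tested as an interaction over the 10 uninduced libraries, which called 1481 of 16083 genes (9.21%), 908 higher (5.65%) and 573 lower (3.56%). Srl held 48.1 and 49.8 CPM in msx2-line myoblasts and 20.4 and 20.3 CPM in GFP-line myoblasts, a line difference opposite to that in myotubes (interaction log2 -1.63 ± 0.10, edgeR adjusted p = 8.3e-06). Myog was at 168 and 156 CPM in msx2-line and 44.5 and 48.2 CPM in GFP-line myoblasts, while the myotubes of the lines differed by 0.04 log2 (-1.72 ± 0.11, edgeR adjusted p = 1.2e-05). Smyd1 behaved likewise (-1.29 ± 0.11), and Fst was higher in msx2-line myoblasts but lower in msx2-line myotubes (-1.37 ± 0.19). Mef2c did not pass that test (-0.36 ± 0.20, edgeR adjusted p = 0.32), with 7.03 and 9.22 CPM in msx2-line and 8.89 and 7.80 CPM in GFP-line myoblasts. Among genes called higher in msx2-line myotubes, those that passed in the interaction included Rhou (0.85 ± 0.13), Tspan2 (1.03 ± 0.16) and Hspa1b (0.53 ± 0.13).

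**Figure D5:**
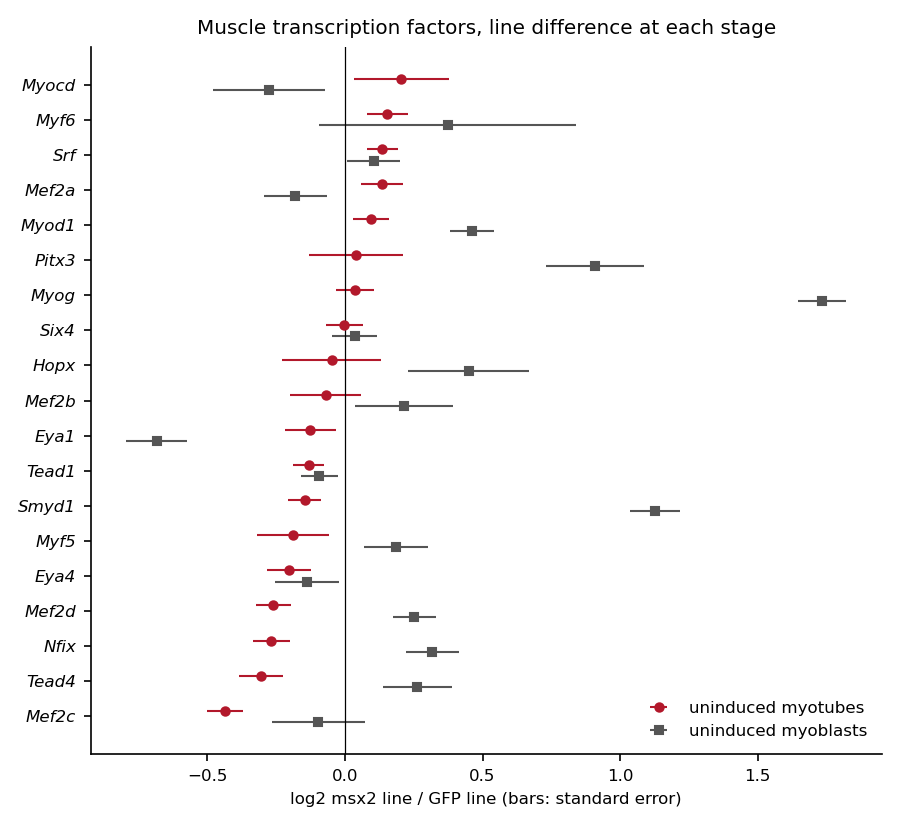
Log2 msx2 line over GFP line with standard errors for 19 of the 21 muscle transcription factors, in uninduced myotubes (red circles, upper of each pair) and uninduced myoblasts (grey squares). In myotubes the factors lie between -0.44 and 0.21, while in myoblasts Myog and Smyd1 exceed 1.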

How the data were processed

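The deposited values are raw counts of reads per gene, whole numbers for 19866 entries; the authors made them from stranded mRNA libraries of 500 ng total RNA and 12 PCR cycles, per the labels' protocols. The build was mm9, and the tools listed in the submitters' processing notes are edgeR 3.6.8, TopHat2 2.0.11 and SAMtools 0.1.19. Which tool counted reads, on which annotation and strand, is not given in the sources used here. Of the 19866 entries, 67 had no symbol, held 0.0601 to 0.0878% of a library and stayed out of every fit. No coordinates of mm9 are printed.

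The 6 uninduced myotube libraries were fitted with edgeR 4.0.16 (R 4.3.3, limma 3.58.1): filterByExpr at a minimum count of 10, TMM scaling, line plus replicate number, robust quasi-likelihood F-tests, two-sided, Benjamini-Hochberg over all genes tested, threshold 0.05. This leaves 2 residual degrees of freedom, moderated across genes. Fold changes are edgeR's, and standard errors are the unshrunken log2 change over the square root of F. Libraries were paired by replicate number, and the labels do not say what a number stands for. Deviations from the group means correlated at 0.196, 0.300 and 0.311 between lines for the same number, and at -0.211 to -0.0195 for different ones. Deviations within a line cancel out, so the second range follows in part from the first. Myoblasts and the line by stage interaction came from 1 fit of the 10 uninduced libraries, whose spread the myotubes share, induced myotubes from their own 6, and differentiation from 5 GFP-line libraries without block. Scripts were tested on simulated counts.

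Named genes were Msx2, Msx1, the 12 largest rises and falls among called genes with at least 2 CPM in the higher line and no overlap, leaving out predicted genes, up to 2 called genes each way per list, the muscle transcription factors, and the 5 largest interactions each way. Members and lists were chosen with earlier results of these data known. Some genes that this rule takes are not reported here. Alternatives were other scalings, filters, fits with more libraries, no block, DESeq2 1.42.0, a GC offset and leaving out libraries.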

Additional observations from a re-analysis of the deposited data

Results flagged for a closer look

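The line difference changed between myoblasts and myotubes in 36 of the named genes, of which 33 are given here, by the interaction over the 10 uninduced libraries (edgeR, adjusted p under 0.05). All values are log2, line difference in myotubes minus that in myoblasts. These genes were named partly for passing in myotubes, which favours such a difference, and the GFP-line myoblast libraries on which it rests differed little beyond counting noise.

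Genes more positive in myotubes were S100a7a at 2.35, Plac8 at 2.24, Ifi205 at 2.04, Kctd12b at 1.94 and Tnfrsf11b at 1.86, the 5 largest. Some of these levels were low: S100a7a was at 0.136 and 0.419 CPM in msx2-line myoblasts. Plac8 averaged 0.763 CPM in msx2-line and 0.357 CPM in GFP-line myotubes. In Kctd12b the msx2 line was at 6.25 ± 2.53 CPM and the GFP line at 6.20 ± 1.54 CPM as myotubes (SD, n = 3 each), against 3.49 and 3.48 CPM in msx2-line and 12.5 and 12.5 CPM in GFP-line myoblasts. Tspan2 had 1.03, Rhou 0.846, Eya1 0.539 and Hspa1b 0.532.

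Among the 5 most negative were Mfap4 at -2.56 ± 0.58, Dhrs7c at -2.46 ± 0.50, Ache at -2.39 ± 0.67 and Heyl at -2.35 ± 0.17 (SE). The first 3 rest on few reads in GFP-line myoblasts, with Mfap4 at 0.143 and 0.140 CPM, Dhrs7c at 0.238 and 0.514 CPM and Ache at 0.190 and 0.0467 CPM. In myoblasts alone the line differences of Dhrs7c and Ache did not pass (edgeR adjusted p of 0.119 and 0.0962). Heyl, a Notch target, was at 35.8 and 32.5 CPM in msx2-line and 7.08 and 6.87 CPM in GFP-line myoblasts, while as myotubes the msx2 line held 5.70 ± 0.379 CPM and the GFP line 6.22 ± 0.52 CPM (SD, n = 3 each). Among muscle transcription factors the values were -1.72 for Myog, -1.29 for Smyd1, -0.886 for Pitx3, -0.602 for Nfix, -0.588 for Tead4, -0.531 for Mef2d and -0.386 for Myod1.

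Structural and channel genes gave -1.63 for Srl, -1.51 for Myh6, -1.49 for Myh7, -1.48 for Capn3, -1.27 for Cacna1b and -1.25 for Scn4a. Further values were -1.97 for F2, -1.37 for Fst, -1.08 for Pax7, -1.07 for Grb10, -0.529 for Adam19, -0.528 for Jam3 and -0.4 for Spry2. F2 too was low in GFP-line myoblasts, at 0.143 and 0.187 CPM.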

How the results depend on the processing

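Msx2 passed under every alternative run, at 3.46 to 3.73 log2. The count of genes called, 112, moved with most of them, and so did the 21 list members. Genes and list members called were 60 and 13 with upper-quartile scaling, 245 and 41 without the low-count filter, 37 and 7 at 5 CPM in 3 libraries, 264 and 35 with the 12 myotube libraries, 57 and 13 with robust estimation off, 72 and 13 with the GC offset, and 228 and 39 with DESeq2, all with the replicate block. All 16 libraries gave 173 genes with the block, and 10 genes and 2 list members without it. Leaving out 1 replicate number gave 46 to 262 genes and 11 to 50 list members. Without the replicate block 1 gene (Msx2) and 1 list member passed, and without 1 library and the block 1 to 2 genes and 1 list member; the cause was not tested. The line by induction interaction, 4150 genes, had 2473 without the block and 2433 to 3393 without 1 number. Differences that did not pass turned sign without the block and 1 library: Myf6 to -0.1951 without msx2-line replicate 1 and -0.03604 without GFP-line replicate 2, S100a7a to -0.04971 without msx2-line replicate 2, and Myocd to -0.0002996 without msx2-line replicate 3.

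Of the lower genes, 74.5 to 85.7% were also lower in induced myotubes in 9 alternatives with the block, chosen after seeing the data, and 51.1% of those at an unadjusted p under 0.05 without it. For the higher genes the share also higher there was 46.7 to 69.2% in the same 9, and 49.2% at that p without the block. The share of higher genes called lower there reached 20.6%, without replicate number 3. The medians of gene lists without 1 replicate number were also added after seeing the data. At 2 residual degrees of freedom and a median SE of 0.0912 log2, differences in genes that did not pass cannot be taken as absent.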
